A study of Mus musculus with 6 samples.

Results

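The salivary gland without added BMP-2, taken from wild-type mouse embryos at E13.5 (embryonic day 13.5), is described here. The description rests on 3 of the 6 RNA-seq libraries of a study of BMP-2 in salivary gland formation. They are the 3 libraries whose label gives 0 ng/ml of BMP-2, a secreted growth factor of the TGF-β superfamily, numbered as replicates 1, 2 and 3 by the labels. The remaining 3 libraries, from glands of the same age and genotype given 300 ng/ml of BMP-2, were used only to scale the libraries together. The labels do not give the strain, the sex, the number of embryos per library, which of the salivary glands were taken, the time in culture, or whether replicates came from separate litters. The levels below may therefore differ from those of a freshly taken gland. With 1 group there is no contrast and no test: all values are levels, with the spread over 3 libraries.

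The mouse submandibular and sublingual glands form when oral epithelium buds into a condensed mesenchyme that derives largely from the neural crest. The bud branches repeatedly by clefting, driven by signals such as FGF10 from the mesenchyme acting on FGFR2 in the epithelium. Cells of the end buds give rise to secretory acini and cells of the stalks to ducts, while a parasympathetic ganglion, vessels and resident macrophages gather around the epithelium.

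The libraries held 21150072, 19724383 and 26269855 counts in replicates 1, 2 and 3. Levels are given in CPM (counts scaled to a library of 1000000), and levels of different genes are compared as CPM per kb of the deposited gene length, while sums over a list are also given in CPM to set the libraries side by side. At these depths 3 counts, the limit that a count of 0 allows, correspond to 0.149, 0.150 and 0.112 CPM, which covers counting error only. A gene was taken as detected at 1 CPM or more in each of the 3 libraries, which held for 14276 genes, 12587 of them protein coding. RNA came from whole tissue, so fewer cells of a type and less RNA per cell cannot be told apart in any level below.

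Replicate 1 stood apart from the other libraries. Counts of replicates 2 and 3 differed by a chi-square of 12.7 per degree of freedom, against 33.3 for replicates 1 and 2 and 35.2 for replicates 1 and 3, so no library was a repeat of another. Across the 14276 detected genes, 229 differed at least 2-fold between replicates 2 and 3, 503 between replicates 1 and 2, and 557 between replicates 1 and 3. The common biological coefficient of variation, the spread beyond counting error estimated by edgeR, was 0.174 over the 3 libraries and 0.125 without replicate 1. Replicate 2 differed from the others in its sex-linked transcripts and replicate 3 in its muscle transcripts, as given further on. Of the summed levels of 30 gene lists, 3 moved by over 1.5 times when 1 library was left out, and they are named beside their values.

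The 5 genes that mark the gland were high in all 3 libraries. Epcam, an adhesion protein of epithelial cells, had 679, 589.9 and 581 CPM in replicates 1, 2 and 3, and Krt14, a keratin of basal epithelial cells, had 666, 539 and 889 CPM. Sox10, a transcription factor of end bud cells and of neural crest derivatives, had 140, 130 and 125 CPM. Krt14 was the least even of these 3, highest in replicate 3 and with a coefficient of variation of 25.4%. Col1a1, a chain of type I collagen made by mesenchyme, had 1726, 1451 and 1709 CPM. Bpifa2, a secreted protein of the developing and adult salivary gland also known as parotid secretory protein, had 3376, 1972 and 1522 CPM. Bpifa2 had the widest spread of the 5, with 2290 ± 967 CPM (SD, n = 3) and 2.22-fold more in replicate 1 than in replicate 3. Per length, Bpifa2 stood at 1140 ± 481 CPM per kb, Krt14 at 397 ± 101, Epcam at 281 ± 24.7, Col1a1 at 248 ± 23.5 and Sox10 at 43.2 ± 2.50 (SD, n = 3 each). Epcam was slightly above Col1a1 in every library, with a ratio per length of 1.18, 1.22 and 1.02 in replicates 1, 2 and 3.

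**Figure D1:**
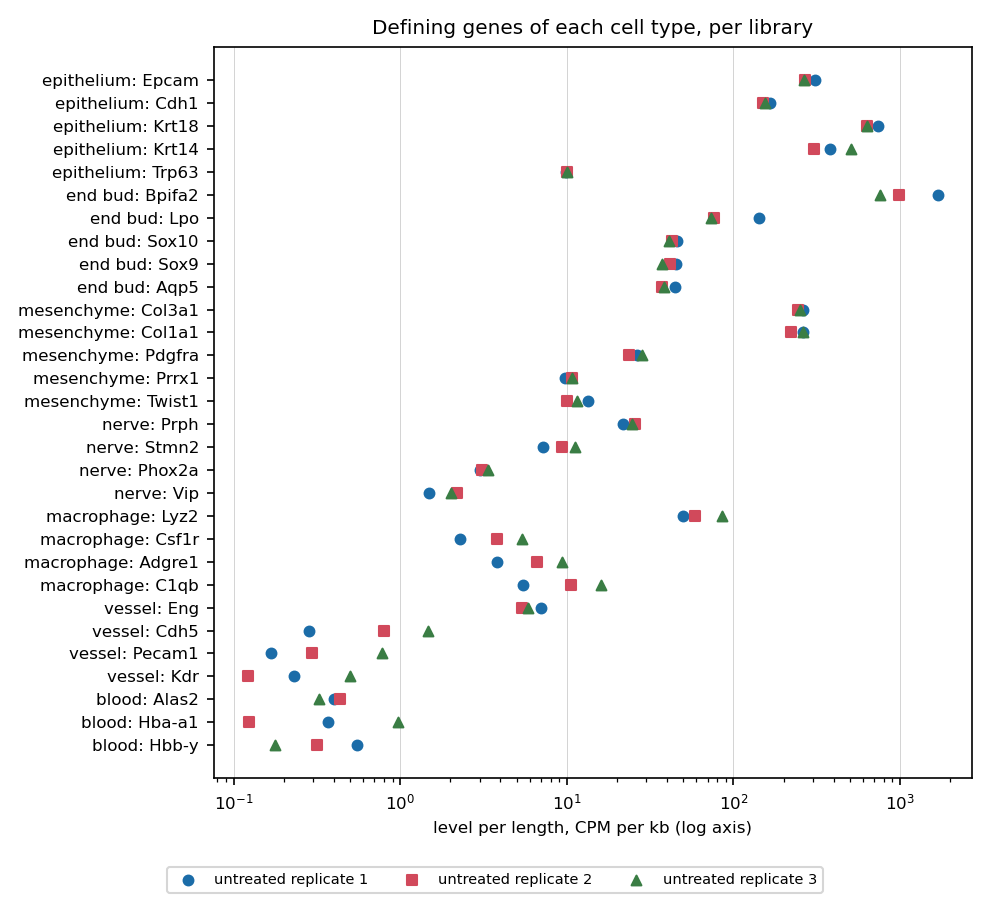
Level per length (CPM per kb, log axis) of defining genes of each cell type in the 3 untreated libraries, 1 symbol per library. Bpifa2 lies between 758 and 1681 CPM per kb, Krt18, Krt14, Col3a1 and Col1a1 lie between 221 and 741, and the vessel genes Cdh5, Pecam1 and Kdr and the blood genes lie near or below 1 CPM per kb.

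The leading transcripts were mostly those of translation, mitochondria and the cytoskeleton, with the salivary secretory genes Bpifa2 and Dcpp1 among them. The 50 most abundant genes held 16.7, 14.5 and 14.3% of the counts in replicates 1, 2 and 3, and genes for ribosomal proteins held 8.74, 6.42 and 6.46%. Eef1a1, the elongation factor that brings tRNA to the ribosome, had 15056, 12635 and 11710.3 CPM, and the row of mt-Co1, a mitochondrially encoded subunit of cytochrome c oxidase, had 21207, 17324 and 16357 CPM. Both were highest in replicate 1. Among protein coding genes other than ribosomal and mitochondrial ones, Eef1a1 also led per length with 5268 ± 693 CPM per kb (SD, n = 3). Among those that followed were Ptma (prothymosin alpha) with 1702 ± 188, Eef2 with 1533 ± 200 and Tpt1 with 1252 ± 206 CPM per kb. Bpifa2 came after Tpt1, ahead of Actg1 (cytoplasmic gamma actin) with 1014 ± 79.0 and the chaperone Hsp90ab1 with 997 ± 103 CPM per kb. The leading 30 of that ranking also held the epithelial keratins Krt18, Krt8 and Krt14, and Dcpp1, a secreted salivary protein that stood at 476 ± 61.9 CPM per kb.

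Some of the leading rows cannot be assigned to 1 gene. Copies of mitochondrial sequence on chromosome 1 held 3.11, 2.72 and 2.65% of the counts in replicates 1, 2 and 3, while rows of the mitochondrial genome held 2.49, 2.24 and 2.14%. For 10 of the 13 mitochondrially encoded protein genes the count was 0 in all 3 libraries, and the copies Gm10925, Gm28661, Gm28437 and Gm29216 were among the top rows. The mt-Co1 row carried a deposited length of 8238 bases over a span of 1545, so its value cannot be read as that of mt-Co1 alone. The glycolytic gene Gapdh, used in many studies as a constant, had 99.7, 103 and 106 CPM, beside 92.6, 88.0 and 79.7 CPM for its copy Gapdh-ps15 and 68.7, 64.4 and 58.5 CPM for Gapdh-ps16. Likewise Rpl21 had 162 ± 70.7 CPM and its copy Rpl21-ps15 had 748 ± 137 CPM (SD, n = 3 each). Levels of genes with near-identical copies are uncertain for this reason.

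Epithelial transcripts had on average the highest sum per length of the cell type lists, 2573 ± 181 CPM per kb (SD, n = 3), and varied little. All 24 genes of the epithelial list were detected, 14 of them at 100 CPM or more on average, and their sum was 6757, 6118 and 6160 CPM in replicates 1, 2 and 3. Krt18 and Krt8, the keratin pair of simple epithelium, had 1065, 913 and 917 CPM and 987, 920 and 901 CPM. Cdh1 (E-cadherin), which joins epithelial cells, had 759, 695 and 710 CPM. Ehf, an ETS-family transcription factor of glandular epithelium, had 584, 602 and 588 CPM, the most even of these genes. The median coefficient of variation over the list was 8.89%. Krt19 was an exception, at 246, 139 and 215 CPM, with the lowest value in replicate 2.

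Basal epithelial genes were less even. Their 12 members summed to 1029 ± 192 CPM per kb (SD, n = 3), and in CPM to 3288, 2710 and 3483 CPM in replicates 1, 2 and 3. Itga6, the integrin that anchors basal cells to laminin, had 587, 581 and 567 CPM, and Trp63, the transcription factor that keeps basal progenitors, had 85.9, 87.0 and 87.3 CPM. Those levels did not separate the libraries. Krt5, the keratin partner of Krt14, had 422, 257 and 469 CPM, and Krt15 had 326, 125 and 201 CPM. Krt17 was instead lowest in replicate 1, with 125, 265 and 321 CPM. Over the 12 members the median coefficient of variation was 21.6%. Lowest in replicate 2 were 7 of the 12, among them Krt14, Krt5 and Krt15, against 30.6% of all detected genes.

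End bud and proacinar genes summed to 2318 ± 495 CPM per kb (SD, n = 3), and Bpifa2 made up 49.2% of that sum. The 19 members with a row summed to 7162, 5731 and 4992 CPM in replicates 1, 2 and 3, and to 3785, 3760 and 3470 CPM without Bpifa2. Slc12a2, the sodium-potassium-chloride cotransporter of fluid-secreting cells, had 605, 851 and 681 CPM. Lpo (lactoperoxidase, an antimicrobial enzyme of saliva) had 508, 272 and 262 CPM, so like Bpifa2 it was highest in replicate 1. Prol1 (a proline-rich salivary protein) had 555, 680 and 482 CPM and Dcpp1 had 530, 524 and 655 CPM, and neither shared that order. Among transcription factors and receptors of the end bud, Sox9 and Kit were steadier than Bpifa2 and Lpo. Sox9, needed for end bud progenitors, had 188, 172 and 155 CPM, and Kit, the receptor of bud progenitors for stem cell factor, had 146, 132 and 132 CPM. Aqp5, the water channel of acinar cells, had 116, 97.3 and 99.4 CPM. The serous factor Bhlha15, which drives secretory cell maturation, had 148, 98.3 and 107 CPM and was less even than Sox9 and Kit. Sox10 and Sox9 were level per length, with a ratio of 1.04 ± 0.0458 (SD, n = 3).

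A row without a gene symbol (ENSMUSG00000118670, chromosome 15, positions 91722531 to 91832447 on the plus strand of GRCm39) covered Smgc and held 1306, 581 and 1646 CPM in replicates 1, 2 and 3. Smgc itself, a secreted protein of the neonatal gland, had 10.1, 9.51 and 14.8 CPM, and the 2 rows share sequence by position. Dcpp2, which overlaps Dcpp1, had only 10 counts in all 3 libraries, whereas Dcpp3 had 80.4, 74.7 and 101 CPM. How reads in shared sequence were counted is not known, so none of these low or high values can be read as that of 1 gene.

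Duct transcripts were detected in part, for 8 of 14 genes with a row, and summed to 252 ± 38.4 CPM per kb (SD, n = 3). Tfcp2l1, a transcription factor of the duct lineage, had 534, 468 and 432 CPM in replicates 1, 2 and 3, and Krt7, a duct keratin, had 381, 306 and 371 CPM. Krt23 had 239, 185 and 187 CPM and Elf5 had 158, 124 and 114 CPM. Among the listed genes that were not detected, the ionocyte factor Foxi1 had at most 0.411 CPM and Klk1, the tissue kallikrein of granular ducts, at most 0.149 CPM.

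Mesenchymal genes summed to 1375 ± 103 CPM per kb (SD, n = 3), below the epithelial list in every library. Of 28 members with a row 24 were detected, and the sum in CPM was 10963, 9579 and 10277 CPM in replicates 1, 2 and 3. In CPM that was above the epithelial sum of 6757, 6118 and 6160 CPM in every library. The order of these lists therefore rests on the division by the deposited lengths. Per length the fibrillar collagens led the list, with 253 CPM per kb for Col3a1, 248 for Col1a1 and 162 for Col1a2 on average. Col3a1 had 2719, 2515 and 2609 CPM, a coefficient of variation of 3.91%, and Col1a2 had 2361, 1710.0 and 1970.5 CPM. Vim, the intermediate filament of mesenchymal cells, had 492, 492 and 515 CPM and was among the most even genes of the list. Pdgfra, the receptor for PDGF on mesenchymal cells, had 272, 243 and 294 CPM, and Prrx1, a homeobox factor of craniofacial mesenchyme, had 153, 169 and 169 CPM. The small leucine-rich proteoglycans of connective tissue were detected, with 404, 332 and 342 CPM for Dcn and 299, 212 and 210 CPM for Lum. Per length Krt18 exceeded Vim 6.41-fold ± 0.675 (SD, n = 3), while Epcam exceeded Col1a1 1.14-fold ± 0.105, so the balance between epithelium and mesenchyme depends on the pair of genes chosen.

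Tcf21, a bHLH factor of many organ mesenchymes, had 0 counts in all 3 libraries. Its row lies within that of the antisense gene Gm10824, also at 0, and the part of this overlap in the value was not tested. Barx1, a homeobox factor of oral and branchial arch mesenchyme, had 28.3, 26.9 and 29.4 CPM and differed little between libraries. The 39 Hox cluster genes of the table were close to silent. They held 139 counts in all 3 libraries together, 17 of them had no count, and none reached 1 CPM on average. Hoxd8 was the highest with 46 counts.

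With the scaling used here, the basement membrane list was the most even of the cell and matrix lists in its sum. With library totals alone the epithelial list was more even, with 6295 ± 114 CPM against 5567 ± 283 CPM (SD, n = 3 each). The 17 members of the basement membrane list, all detected, summed to 5517, 5665 and 5624 CPM in replicates 1, 2 and 3. Col4a1 and Col4a2, the main type IV collagen chains, had 1349.7, 1334 and 1261 CPM and 650, 584 and 596 CPM. Nid1 (nidogen), which links laminin to collagen, had 382, 403 and 404 CPM. Fn1 (fibronectin), whose assembly accompanies cleft formation in this gland, had 630.0, 1212 and 1039 CPM and was lowest in replicate 1. Lama1, the laminin chain of early epithelial basement membranes, had 2.89, 2.40 and 3.18 CPM, and Lama5 had 334, 242 and 296 CPM. Per length Lama1 stood at 0.292 ± 0.0405 CPM per kb and Lama5 at 24.7 ± 3.90 CPM per kb (SD, n = 3 each).

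**Figure D2:**
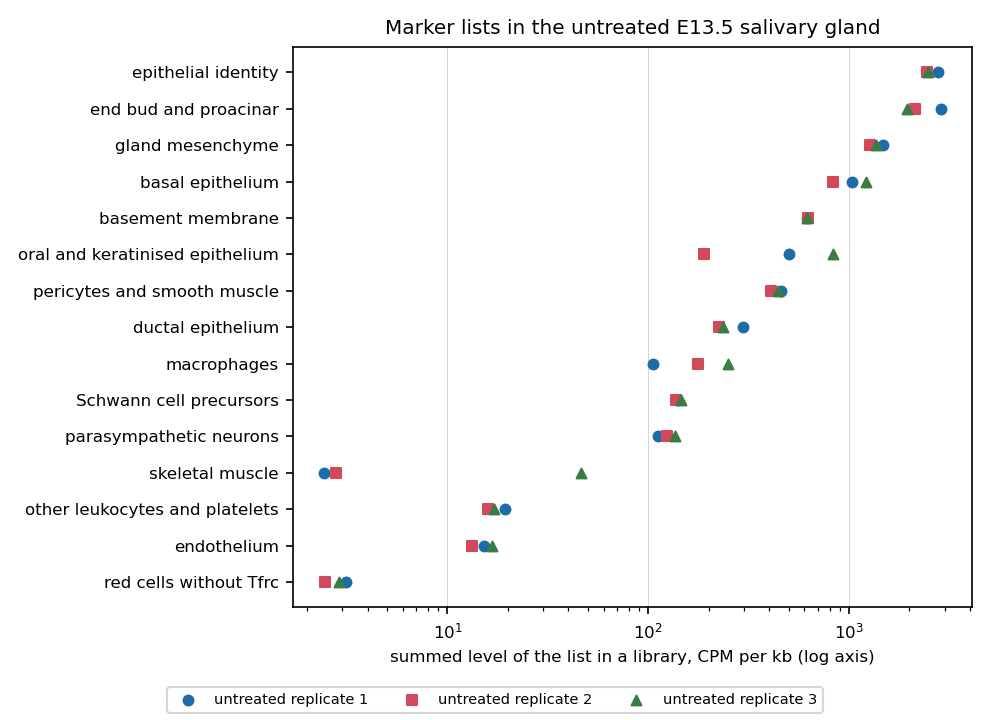
Summed level of each marker list (CPM per kb, log axis) in the 3 untreated libraries, 1 symbol per library. Red cell genes are shown without the widely expressed Tfrc. Other shared genes are kept, among them Sox10 and Erbb3 of the Schwann cell precursor list and Acta2 of the pericyte and smooth muscle list. Epithelial genes sum to 2456 to 2782 CPM per kb and endothelial genes to 13.3 to 16.7, and of the lists drawn the libraries lie furthest apart for muscle, keratinised epithelium and macrophages.

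Ligands and receptors of branching signals were both detected. Fgf10 had 58.8, 57.6 and 56.4 CPM in replicates 1, 2 and 3, and its receptor Fgfr2 had 127, 106 and 110 CPM. Per length the pair was level, at 10.4 ± 0.215 CPM per kb for Fgf10 and 10.3 ± 0.970 for Fgfr2 (SD, n = 3 each). Fgfr1, a second receptor of the family, had 245, 242 and 260 CPM, and Fgf7, another ligand of Fgfr2, had 20.9, 27.2 and 22.8 CPM. These FGF genes differed little between libraries. Among receptors for BMPs, Bmpr1a had 248, 269 and 251 CPM, Bmpr2 had 143, 185 and 173 CPM and Bmpr1b had 8.31, 10.8 and 8.98 CPM. Per length they stood at 35.4 ± 1.56, 8.82 ± 1.16 and 1.5005 ± 0.208 CPM per kb (SD, n = 3 each), in that order. Bmp2 itself had 2.39, 1.55 and 2.80 CPM. Bmp4 had 11.2, 8.41 and 9.39 CPM and Bmp7 had 68.7, 50.3 and 50.9 CPM. Per length Bmp7 led in every library, at 11.6 ± 2.15 CPM per kb, followed by Bmp4 at 4.24 ± 0.631 and Bmp2 at 0.589 ± 0.167 (SD, n = 3 each).

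Dlk1, a Delta-like transmembrane protein of embryonic tissue, made up 63.6% of the ligand list per length, with 2670.1, 1765 and 2159 CPM in replicates 1, 2 and 3. Without it the ligands summed to 1110, 1082 and 1117 CPM. Wnt5b had 83.1, 72.4 and 77.2 CPM, Wnt4 had 68.2, 37.5 and 45.9 CPM and Wnt5a had 5.28, 3.35 and 5.57 CPM. Neurturin (Nrtn), the epithelial factor that keeps parasympathetic neurons alive, had 48.7, 37.0 and 41.4 CPM, and its receptor Gfra2 had 33.1, 19.9 and 23.0 CPM. Shh, a hedgehog ligand of oral and gland epithelium, had 1 count in all 3 libraries together, and Fgf8 had none. The row of Shh overlaps that of another gene, and the part of this overlap in the low value was not tested. Transcripts of the hedgehog pathway's receiving side were present, with 34.6, 43.8 and 47.4 CPM for Ptch1 and 211, 192 and 194 CPM for Smo.

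Areg and Hbegf, ligands of the EGF receptor named after their values were seen, varied more between libraries than the receptor did. Areg (amphiregulin) had 4.43, 23.6 and 16.6 CPM and Hbegf had 14.9, 27.8 and 24.9 CPM in replicates 1, 2 and 3, both lowest in replicate 1. Egfr had 76.2, 87.5 and 87.1 CPM. Eda, the ligand whose loss leaves small glands, had 13.4, 11.1 and 10.9 CPM, and its receptor Edar had 1.64, 0.951 and 2.28 CPM.

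Neuronal transcripts were present, with a sum of 124 ± 11.8 CPM per kb (SD, n = 3). Of 27 genes with a row 21 were detected, and the sum in CPM was 300.2, 347 and 384 CPM in replicates 1, 2 and 3. Prph (peripherin, a filament of peripheral neurons) had 47.9, 56.1 and 53.9 CPM, Stmn2 (a growth cone protein) had 40.3, 52.7 and 63.0 CPM and Gap43 had 36.5, 42.2 and 40.02 CPM. Phox2a, which gives autonomic identity, was lower per length, at 3.16 ± 0.184 CPM per kb against 24.0 ± 1.93 for Prph (SD, n = 3 each). This transcription factor had 6.12, 6.31 and 6.84 CPM. Vip, the peptide transmitter of parasympathetic salivary nerves, had 5.28, 7.71 and 7.11 CPM. Slc5a7, the choline transporter, had 9.51, 16.0 and 22.4 CPM and Slc18a3, which loads acetylcholine into vesicles, had 2.94, 3.004 and 3.48 CPM.

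Noradrenergic genes were close to absent from the counts: Th had 1 count in all 3 libraries together and Dbh had 0. Chat, which makes acetylcholine and whose row contains that of Slc18a3, had 0.199, 0.2003 and 0.374 CPM. Of the 21 detected neuronal genes, 16 were lowest in replicate 1 and 14 highest in replicate 3. Among all detected genes the corresponding shares were 38.4 and 25.9%.

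Glial genes of the precursor stage were present. Erbb3, the neuregulin receptor on Schwann cell precursors and on epithelium, had 163, 220 and 219 CPM in replicates 1, 2 and 3, and Ngfr had 73.9, 54.6 and 62.2 CPM. Cdh19, a cadherin of Schwann cell precursors, had 6.52, 6.06 and 5.91 CPM, and Foxd3, a neural crest factor, had 4.53, 3.25 and 2.84 CPM. Mbp, a myelin gene that also makes transcripts outside myelin, had 58.2, 54.4 and 56.5 CPM. Sox10 is shared by this list and the end bud list, so its level does not measure glia.

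Endothelial transcripts were scarce, with a sum of 15.1 ± 1.70 CPM per kb (SD, n = 3). The 21 listed genes summed in CPM to 61.2, 56.0 and 74.4 CPM in replicates 1, 2 and 3, and 13 of them were detected. Eng (endoglin, a TGF-β co-receptor that mesenchyme also makes) supplied 40.4% of that sum, with 28.5, 21.8 and 23.7 CPM. The defining junction genes were lower per length, at 0.850 ± 0.594 CPM per kb for Cdh5 against 6.09 ± 0.849 for Eng (SD, n = 3 each). Cdh5 (VE-cadherin) had 1.19, 3.35 and 6.17 CPM and Pecam1 had 1.05, 1.85 and 4.86 CPM. Kdr, the VEGF receptor, had 2.09, 1.10 and 4.53 CPM. All 3 were highest in replicate 3. Over the list, 7 of the 13 detected members were highest in replicate 3 and 5 in replicate 1. Among all detected genes the corresponding shares were 25.9 and 43.95%. Per length Epcam exceeded Cdh5 1089-fold in replicate 1, 337-fold in replicate 2 and 180.4-fold in replicate 3. Lyve1, a lymphatic marker, had 0.0748 CPM in replicate 3 and no count in the other libraries. Vegfa, the ligand, had 62.5, 114 and 109 CPM.

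Mural genes, which are shared with other contractile cells, summed to 438 ± 26.3 CPM per kb (SD, n = 3). Acta2 (smooth muscle actin, also made by myoepithelial and activated mesenchymal cells) had 653, 513 and 551 CPM in replicates 1, 2 and 3, and Myh11, a myosin more typical of smooth muscle, had 97.0, 66.5 and 75.4 CPM. Rgs5, a pericyte gene, was not above 0.451 CPM in any library.

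Red cell transcripts were near 0. Of 19 genes with a row, 8 had no count in any library, among them the adult beta globins Hbb-bs and Hbb-bt, the alpha globin Hba-a2 and the anion exchanger Slc4a1. Hba-a1 had 0.299, 0.1001 and 0.785 CPM in replicates 1, 2 and 3 and the embryonic globin Hbb-y had 0.348, 0.2003 and 0.112 CPM, which is 2 to 21 counts for Hba-a1 and 3 to 7 counts for Hbb-y. Alas2, the haem enzyme of red cells, had 1.14, 1.25 and 0.935 CPM. Tfrc, the transferrin receptor of all dividing cells, made up 93.8% of the list per length, and without it the list summed to 13.9, 13.7 and 11.5 CPM.

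Among white cells, 17 of 18 macrophage genes and 4 of 17 genes of other leukocytes and platelets were detected. The macrophage genes had a sum of 180.2, 314 and 427 CPM in replicates 1, 2 and 3. Lyz2 (lysozyme) had 65.7, 76.9 and 112 CPM, Csf1r, the growth factor receptor of macrophages, had 13.2, 22.03 and 30.9 CPM, and Adgre1 (F4/80) had 12.4, 21.7 and 30.5 CPM. These genes kept the same order of libraries. Of the 17 detected genes 16 were highest in replicate 3 and 16 lowest in replicate 1, against 25.9 and 38.4% of all detected genes. The complement genes C1qa, C1qb and C1qc followed, with C1qb at 7.32, 14.1 and 21.5 CPM. Mast cell proteases were low in each library, Mcpt4 at 7.37, 6.81 and 5.16 CPM and Cpa3 at 6.62, 5.81 and 4.53 CPM. The T cell gene Cd3e, the B cell gene Ms4a1, the granulocyte gene Mpo and the platelet gene Gp9 had no count in any library, so they were not detectable at this depth. Traces of other genes of these cells were counted, with S100a9 of granulocytes at 0.398, 0.2003 and 2.36 CPM and Pf4 of platelets at 1.64, 0.551 and 1.01 CPM.

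Tissues next to the gland were also looked for. Cartilage matrix was low where it is most specific, with Col2a1 at 0.547, 1.30 and 1.72 CPM and Acan at most 0.348 CPM in replicates 1, 2 and 3, though Col9a3 had 95.4, 116 and 89.3 CPM. Bone genes other than Spp1 and Runx2 were below 3 CPM in every library. Spp1 (osteopontin, also made by epithelium and macrophages) had 37.5, 268 and 257 CPM, lowest in replicate 1. Fat genes were present in part, with Lpl at 241, 254 and 258 CPM and Adipoq at 1.69, 0.1001 and 3.59 CPM.

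Skeletal muscle genes set replicate 3 apart. Their 16 members with a row summed to 6.57 CPM in replicate 1, 10.9 CPM in replicate 2 and 116 CPM in replicate 3. Myh3, the embryonic myosin heavy chain, had 0.946, 0.701 and 24.0 CPM, and Actc1, the alpha actin of embryonic muscle, had 0, 0.150 and 23.2 CPM. Myog (myogenin), which drives muscle differentiation, had no count in replicate 1, 0.0501 CPM in replicate 2 and 8.19 CPM in replicate 3. Without replicate 3 the mean sum was 8.72 CPM, against 44.6 CPM with it. Per length the muscle list summed to 46.4 CPM per kb in replicate 3, where the mesenchymal list summed to 1367. Whether muscle next to the gland entered that library was not tested.

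Cell cycle genes varied little between libraries, with a median coefficient of variation of 8.86%. All 24 cell cycle genes were at 10 CPM or more on average, with a sum of 3141, 2988 and 2832 CPM in replicates 1, 2 and 3. Mki67, a marker of cycling cells, had 322, 326 and 336 CPM and Top2a, the topoisomerase of S and G2 phase, had 255, 294 and 273 CPM. Ccnd1 (cyclin D1) had 645, 608 and 459 CPM and was the least even of the leading members. Cdkn1c, an imprinted cell cycle inhibitor of embryonic tissue, had 800, 602 and 646 CPM, whereas Cdkn2a, an inhibitor linked to senescence, had at most 0.449 CPM.

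Imprinted genes of fetal growth summed to 2440.4 ± 141 CPM per kb (SD, n = 3). The 16 genes had in CPM a sum of 10726, 11446 and 11971 CPM in replicates 1, 2 and 3. H19, a noncoding RNA expressed from the maternal allele, had 2181, 3298 and 3149 CPM and was lowest in replicate 1, and Peg3 had 1355, 1768 and 1630.3 CPM. Rian, a noncoding RNA of the Dlk1 cluster, had 849, 844 and 853 CPM, while its neighbour Meg3 had 453, 798 and 1109 CPM. Igf2, the growth factor gene next to H19, had 21.4, 37.6 and 49.2 CPM, and H19 exceeded it 207-fold ± 47.2 per length (SD, n = 3). The row of Igf2 overlaps that of Gm49394 on the same strand, which had 3 counts in all, and the part of this overlap in the low value was not tested.

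The spread between libraries depended on the level of a gene. For genes of 1 to 2 CPM the median coefficient of variation was 19.9%, where counting error alone would give 16.7%. The 2 values do not subtract, and the need for 1 CPM in each library limits the spread in that bin. The biological coefficient of variation that edgeR fitted by level had a median of 0.242 there, against 0.133 at 100 to 1000 CPM. The median coefficient of variation was 9.55% at 20 to 100 CPM, the bin with the most genes (6101), and 8.30% at 100 to 1000 CPM. In the 74 genes of 1000 CPM or more it was 17.7%, although counting error alone gives 0.532% there. The increase at the top goes together with ribosomal proteins, of which 77 of the 80 detected genes were highest in replicate 1. Summed, they had 91999.5 CPM in replicate 1, 63374 CPM in replicate 2 and 63424 CPM in replicate 3, and Rplp0 had 4052, 3053 and 2875 CPM. Among all detected genes 43.95% were highest in replicate 1.

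**Figure D3:**
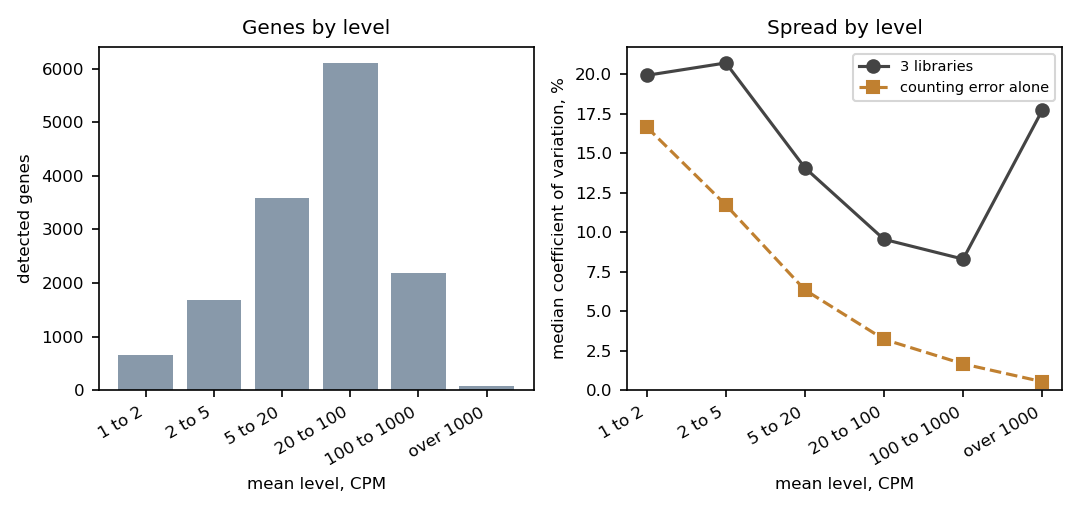
Number of detected genes (left) and median coefficient of variation over the 3 untreated libraries in % (right) by mean level in CPM, with the spread that counting error alone gives. The spread falls to 8.30% at 100 to 1000 CPM and is 17.7% above 1000 CPM.

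Some genes hardly differed between libraries. Among genes of at least 50 CPM, the narrowest ranges belonged to the splicing factor Rbm22 with 62.5, 62.3 and 62.4 CPM in replicates 1, 2 and 3, to the actin-binding protein Svil with 176, 177 and 177 CPM, and to the m6A reader Ythdf2 with 88.8, 88.5 and 88.7 CPM. Mapre1, a protein of microtubule ends, had 208, 209 and 207 CPM. The chaperone Hspa8 was also even, at 2022, 2072 and 2029 CPM. Over the 11867 genes of at least 5 CPM, the median range was 0.28 on the log2 scale.

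At the other end, 445 of those 11867 genes (3.75%) ranged at least 2-fold between the highest and lowest library, and 103 at least 4-fold. Replicate 1 was the lowest library for 293 of the 445 and replicate 3 the highest for 263. Without replicate 1 the number that ranged 2-fold was 132, and without replicate 3 it was 244. The groups of genes behind these numbers are described next.

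**Figure D4:**
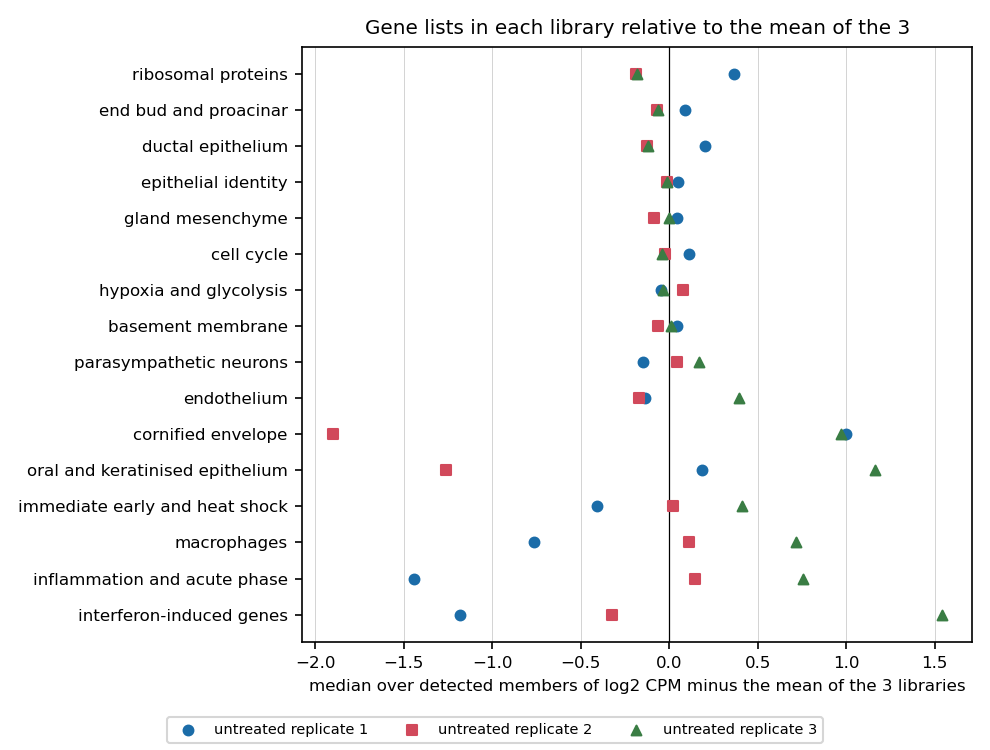
Median over the detected members of each gene list of log2 CPM minus the mean of the 3 libraries, 1 symbol per library. The epithelial, end bud, mesenchyme and cell cycle lists reach at most 0.11 on either side of 0, whereas the keratinised lists are low in replicate 2 and the immediate early, macrophage, inflammation and interferon lists are low in replicate 1 and high in replicate 3.

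Sex-linked transcripts were among those with the widest range. Xist, the noncoding RNA that silences an X chromosome in female cells, had 1.14, 1079 and 1.76 CPM in replicates 1, 2 and 3. The Y-linked gene Ddx3y (an RNA helicase) had 82.8, 0.150 and 108 CPM. Eif2s3y (a translation factor) had 45.0, 0 and 51.7 CPM, Kdm5d (a histone demethylase) had 36.8, 0 and 50.7 CPM, and Uty had 24.7, 0 and 33.4 CPM. Xist was thus high in replicate 2 alone, and these 4 Y-linked genes were at or near 0 there. The list of sex-linked genes summed to 218 CPM on average without replicate 2, against 505 CPM with it. Other rows of chromosome Y kept counts in replicate 2, among them Gapdh-ps15 with 1757 counts. As given above, Gapdh-ps15 is a copy of Gapdh, so its counts cannot be assigned to chromosome Y. Any gene that differs between sexes would differ between replicate 2 and the others in the same way, and the part of sex in other results was not tested.

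Genes of oral and keratinised epithelium were low in replicate 2. The 18 members summed to 1094, 597 and 2075 CPM in replicates 1, 2 and 3, and 10 of the 12 detected members were lowest in replicate 2, as were 30.6% of all detected genes. Krt13 and Krt4, the keratin pair of oral mucosa, had 302, 65.0 and 434 CPM and 83.0, 17.4 and 132 CPM. Krt6a, a keratin of wounded and oral epithelium, had 380, 409 and 895 CPM and did not share that order. Genes of the cornified envelope, a list made after values were seen, went further. Rptn (repetin) had 67.0, 2.05 and 108 CPM, Sprr3 had 25.6, 1.20 and 43.8 CPM and Lor (loricrin) had 17.4, 0.250 and 16.2 CPM. Hrnr (hornerin) stood out in replicate 3 alone, with 0.896, 0.250 and 33.7 CPM. All 9 detected members of that list were lowest in replicate 2. In comparison Epcam, a gene of the whole epithelium, was close in replicates 2 and 3. Whether differing amounts of oral epithelium entered the libraries was not tested.

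Immediate early genes were lowest in replicate 1. Fos had 7.32, 48.1 and 95.3 CPM in replicates 1, 2 and 3, its relative Fosb had 0.249, 5.61 and 10.1 CPM, and Egr1, a zinc finger factor induced by growth signals, had 55.4, 161 and 246 CPM. Junb followed with 33.2, 110 and 165 CPM. Not every stress gene shared that order: the heat shock gene Hspa1a had 37.5, 38.1 and 44.5 CPM and Atf3 had 17.8, 14.3 and 17.8 CPM. Of 19 detected members of the immediate early and heat shock list, 15 were lowest in replicate 1 and 14 highest in replicate 3, against 38.4 and 25.9% of all detected genes.

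Genes of inflammation and the acute phase, a list made after values were seen, were mostly lowest in replicate 1, but not always highest in 3. They summed to 184, 435 and 604 CPM in replicates 1, 2 and 3. Of 18 detected members 13 were lowest in replicate 1 and 5 in replicate 2, against 38.4 and 30.6% of all detected genes. Highest in replicate 3 were 10 and in replicate 2 were 8, against 25.9 and 30.1%. Chil1 (a chitinase-like secreted protein) had 1.14, 29.8 and 16.0 CPM, Reg3g (an antibacterial lectin) had 1.14, 18.1 and 8.27 CPM and Lcn2 (an iron-binding antibacterial protein) had 6.22, 41.2 and 33.1 CPM. Fgg (fibrinogen gamma) had 6.42, 81.3 and 28.7 CPM. Those 4 genes were highest in replicate 2. Ptgs2, the inducible prostaglandin enzyme, had 0.547, 15.4 and 13.7 CPM. Saa3 (serum amyloid A) and the complement gene C3 were instead highest in replicate 3, with 10.5, 10.4 and 44.4 CPM for Saa3 and 30.1, 23.7 and 112 CPM for C3. The macrophage list, given above, was also lowest in replicate 1, and the part of macrophages in these values was not tested.

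Interferon-induced genes, likewise listed after values were seen, separated replicate 3. The 24 genes summed to 86.7, 132 and 405 CPM in replicates 1, 2 and 3, and all 18 detected members were highest in replicate 3, as were 25.9% of all detected genes. Without replicate 3 the mean sum was 109.5 CPM, against 208 CPM with it. Cxcl10, a chemokine for T cells, had 3.53, 4.11 and 45.3 CPM and Irf7, the factor that amplifies interferon production, had 2.04, 5.96 and 19.97 CPM. Ifit1, which binds viral RNA, had 1.19, 3.405 and 13.1 CPM and Isg15, a ubiquitin-like modifier, had 2.09, 4.01 and 15.5 CPM. Bst2 (tetherin) had 17.6, 21.4 and 63.5 CPM. Stat2, a transducer of interferon signals, had 14.4, 17.3 and 23.9 CPM.

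The promoters of 4 of these genes are shown because members of the list moved together. Interferon-stimulated genes also commonly carry a response element bound by the ISGF3 complex and IRF factors. Further genes of the list, among them Irf7, were searched for display. Of the genes searched for display only those with a match are shown, so the 4 were chosen by the motif itself. The sequences are those of RefSeq for GRCm38.p6, not the build of the deposited table, each a stretch of 110 bases written 5′ to 3′ on the strand of the gene. They lie at chr5:92349030-92349139 on the minus strand for Cxcl10, chr4:156200831-156200940 on the minus strand for Isg15, chr19:34640742-34640851 on the plus strand for Ifit1 and chr19:34583350-34583459 on the plus strand for Ifit3. Capitals mark each match to GAAANNGAA, searched on both strands with overlapping matches included, so that a match on the other strand reads as its reverse complement and overlapping matches form 1 run of capitals.
Cxcl10: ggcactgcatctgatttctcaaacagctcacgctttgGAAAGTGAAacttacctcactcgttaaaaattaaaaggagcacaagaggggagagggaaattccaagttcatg
Isg15: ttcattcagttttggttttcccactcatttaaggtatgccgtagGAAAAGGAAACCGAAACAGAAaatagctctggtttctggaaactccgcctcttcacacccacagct
Ifit1: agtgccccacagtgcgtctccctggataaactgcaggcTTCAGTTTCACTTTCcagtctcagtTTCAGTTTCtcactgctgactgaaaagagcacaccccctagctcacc
Ifit3: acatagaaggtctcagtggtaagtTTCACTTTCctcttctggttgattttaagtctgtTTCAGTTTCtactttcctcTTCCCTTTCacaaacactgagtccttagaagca
Within the 250 bases before the start, the motif was found for 11 of the 16 listed genes that had a promoter sequence (68.8%), and for 2211 of all 27025 genes with one (8.18%). The list was made of interferon-induced genes after values were seen, and such genes commonly carry the element. The higher share was therefore built into the list and is no result of these libraries. A match is a run of letters and shows no binding, and no match says only that the letters are not in that window. Ifit3 had 2.99, 3.81 and 18.6 CPM in replicates 1, 2 and 3.

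**Figure D5:**
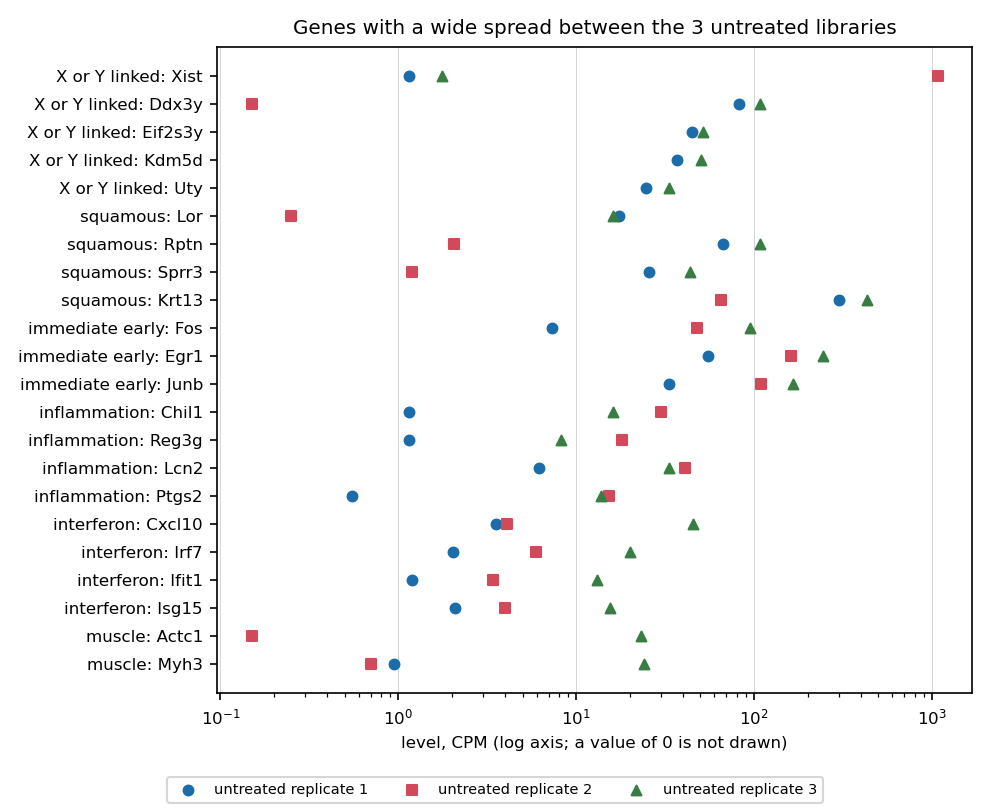
Level (CPM, log axis) of genes with a wide spread in the 3 untreated libraries, 1 symbol per library; values of 0 are not drawn. Xist is high in replicate 2 alone, squamous genes are low in replicate 2, immediate early and inflammation genes are low in replicate 1, and interferon and muscle genes are high in replicate 3.

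Some wide ranges belonged to near-copies rather than to gene groups. Rps26-ps1 had 48.7, 11.0 and 7.26 CPM in replicates 1, 2 and 3, beside 1112, 775 and 753 CPM for its parent Rps26. Rpl17-ps10 had 720, 470 and 175 CPM. Srp54c, which has close relatives on the same chromosome, had 3.88, 26.0 and 37.6 CPM, and Xlr3b, one of a cluster of similar X-linked genes, had 15.9, 0.801 and 2.92 CPM. The labels do not say how reads with several matching places were handled, so the values of such copies are uncertain.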

How the data were processed

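Poly(A)-selected RNA was sequenced after a small-input column extraction and a directional library kit, per the labels' protocols. The authors deposited raw counts per gene with a gene length column, for 58116 rows on GRCm39. Tools listed by the submitters' processing notes are HISAT2 2.2.0, cutadapt 2.9 and featureCounts, without their settings for strand or for multiply matching reads. The deposited length exceeds the genomic span of 827 rows, so values per kb are approximate. The 3 untreated columns matched their labels by description, and 1 column of the table matched no description and entered only the scaling. CPM are counts divided by the TMM-scaled library size (edgeR 4.0.16, R 4.3.3, factors from 17006 genes over all 6 libraries), summaries were made with Python 3.11.15, and the dispersion script was tested on simulated data. No test was made, as there is 1 group. Totals of 19724383 to 26269855 counts make counting error small above about 20 CPM. The members and 27 gene lists were chosen with earlier results of these data known, and 4 lists were added after values were seen. Named genes are the 5 markers, the 20 highest by CPM and by CPM per kb, the top 6 and all zero-count members of each list, the 15 widest and 10 narrowest, and the 10 highest and lowest per library; Pecam1, Kdr, Gapdh, Gapdh-ps15, Gapdh-ps16, Rpl21, Krt19, Trp63, Krt15, Sox9, Kit, Aqp5, Bhlha15, ENSMUSG00000118670, Smgc, Dcpp2, Dcpp3, Foxi1, Klk1, Prrx1, Dcn, Lum, Gm10824, Barx1, Lama1, Lama5, Fgf10, Fgfr2, Fgf7, Bmpr2, Bmpr1b, Bmp2, Bmp4, Bmp7, Wnt4, Wnt5a, Nrtn, Shh, Ptch1, Smo, Areg, Hbegf, Egfr, Eda, Edar, Phox2a, Vip, Slc5a7, Slc18a3, Th, Chat, Cdh19, Foxd3, Lyve1, Rgs5, Hbb-y, C1qa, C1qb, C1qc, Col2a1, Acan, Adipoq, Myog, Cdkn2a, Igf2, Gm49394, Hspa1a, Atf3, Irf7, Ifit1, Isg15, Ifit3 and Rps26 were named outside this rule, after their values were seen. Rows for Muc19, Foxf1, Tubb3, Ahsp and Acta1 were not analysed here, and some listed genes are not reported here. Gene types came from GENCODE M21 by identifier. Alternatives were other scalings, other minimum levels, and leaving out each replicate.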

Additional observations from a re-analysis of the deposited data

How the results depend on the processing

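No paired analysis was possible because no contrast was made. Under 4 other scalings, none of 120 list sums moved by more than its SD over the 3 libraries. Of 1036 values of named genes 34 did, all in genes whose libraries were nearly equal. The SD of a list sum did depend on the scaling, as given for the basement membrane list. Leaving out 1 of 3 libraries cannot move a mean by its SD, so those values were read as ratios: 3 of 90 list sums and 40 of 777 named gene values moved by over 1.5 times. Skeletal muscle had 8.72 CPM without replicate 3 against 44.6 with it, interferon-induced genes 109.5 against 208, and sex-linked genes 218 without replicate 2 against 505. Scaling the per-kb values to a constant sum per library (TPM) raised the mean list sums by similar factors. They became 7325 for epithelium against 2573 before, 3914 for mesenchyme against 1375 and 357 for neurons against 124. For endothelium the mean sum was 43.1 against 15.1, and for macrophages 517 against 177. The SD did not rise by the same factors: it went from 181 to 200 for epithelium and from 11.8 to 63.4 for neurons. Without mitochondrial rows and their copies the top 50 genes held 11.6% of counts, against 15.2%. Of the 50 leading genes 26 were shared by the rankings on CPM and on CPM per kb. The biological coefficient of variation ranged from 0.125 to 0.197 with 1 replicate left out, against 0.174. The number of genes ranging 2-fold was 1286 from 1 CPM and 150 from 20 CPM, against 445 from 5 CPM, and lay between 132 and 302 with 1 replicate left out, which compares 2 libraries in place of 3. Genes under about 5 CPM, among them most vessel and blood genes, rest on few counts.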
